A study of Mus musculus with 24 samples.

Results

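The genes described here are those whose expression was measurable in both liver and jejunum, and for which the effect of lacking caspase-1 could therefore be compared between the organs. A gene was taken when its mean exceeded the median of the arrays in at least 1 genotype of liver and in at least 1 genotype of jejunum, which held for 9321 of the 18820 genes with a single symbol. Of these, 8868 were over the median in all 4 groups and 453 were not. The comparison for each gene is an interaction: the difference of Casp1-null and wild-type (WT) livers, minus the difference of Casp1-null and WT jejunum. A positive interaction therefore means a difference that is more positive in liver than in jejunum. Levels and differences are on the log2 scale throughout, so that 1 unit is a 2-fold change. Nearest to the limit were Npnt, a member 0.000128 over it, and Fblim1, at -0.000276 from it and therefore no member.

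The study asked how caspase-1 bears on the handling of triglyceride in intestine and in liver. It used male mice aged 14 to 16 weeks on chow, and 12 of its 24 arrays are compared here, 3 in each group. The groups were livers of Casp1-null mice, livers of WT C57Bl/6J mice, and the epithelium scraped from the jejunum of Casp1-null and of WT C57Bl/6J mice. Casp1-null mice lack caspase-1 in every cell and had been backcrossed to C57Bl/6 for 10 generations. The WT mice were matched for age, and the labels name no littermates, so that effects of Casp1 and of other differences between the colonies cannot be told apart. Livers were taken after a 16 h fast, whereas the jejunum was taken 2 h after 200 µL of olive oil had been given to mice fasted overnight. Organ and feeding state therefore cannot be told apart either. Replicate numbers only name samples, and the p-values rest on the variation among 3 arrays per group.

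Caspase-1 is the protease of inflammasomes, which matures interleukin-1β and interleukin-18 and opens gasdermin D pores. Fasted liver oxidises fatty acids and makes glucose and very-low-density lipoprotein. Jejunal enterocytes that meet dietary fat take up fatty acids, rebuild triglyceride and pack it into chylomicrons.

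The tissue labels fitted their markers, since all 14 hepatocyte markers measured were over the array median in liver and all 16 enterocyte markers were in jejunum. Array medians were 5.19 to 5.22 in liver and 4.88 to 4.99 in jejunum, and arrays of one group correlated with Pearson's r of 0.986 to 0.992 over probe sets. Casp1 itself (Gene ID 12362) is not among the 9321 genes, because its liver signal lay under the median. In jejunum it was 6.33, 6.52 and 5.82 in Casp1-null mice, against 9.13, 9.44 and 9.32 in WT mice. In liver it was 3.80, 4.27 and 4.24 in Casp1-null mice and 4.51, 4.60 and 4.22 in WT mice, so it could not check the liver labels. Some arrays stood apart in markers of other cell types. WT livers were higher in enterocyte and goblet markers, and the third Casp1-null jejunum was high in stromal and macrophage markers, with Dcn at 8.27 and Csf1r at 8.28, against 4.71 and 6.39, and 6.44 and 5.73, in the other Casp1-null jejunum arrays. The stromal list averaged 7.09 in the first Casp1-null liver and 6.23 and 6.37 in the other Casp1-null livers, against 6.49 to 6.60 in WT livers. In such bulk samples, fewer cells of a type and less RNA per cell cannot be told apart.

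The genotype difference itself differed between liver and jejunum for 145 of the 9321 genes (1.56%), at an adjusted p under 0.05 in limma with Benjamini-Hochberg adjustment over all probe sets. The interaction was positive for 66 genes (0.708%) and negative for 79 (0.848%). The call was made for 124 of the 8868 members over the median in all 4 groups (1.4%), and for 21 of the other 453 (4.64%), which entered through a group where they were high. Among genes that were not members, 1.25% passed, and 1736 members (18.6%) had an unadjusted p under 0.05. For 80 of the 145 genes the difference passed the test in jejunum alone, for 48 in liver alone, for 8 in both tissues and for 9 in neither. The difference took opposite signs in the 2 tissues in 110 of the 145, but both differences passed in only 5 of these. Choosing genes by the interaction itself favours opposite signs, so the 110 do not count reversals. Of the 145, 105 had an interaction of at least 1 log2 unit, and the median size over the 145 was 1.25. For liver 253 members passed (2.71%, against 2.3% of all genes), 109 higher (1.17%) and 144 lower (1.54%) in Casp1-null mice. For jejunum 333 passed (3.57%, against 2.42% of all genes), 179 higher (1.92%) and 154 lower (1.65%). For the mean of both differences 390 passed (4.18%), 179 higher (1.92%) and 211 lower (2.26%). Of the liver and jejunum genes, 44 passed in both, which is 17.4% of the liver genes and 13.2% of the jejunum genes, and 39 of the 44 had the same sign. Across all members, the liver and jejunum differences correlated with a Pearson coefficient of 0.142 and a Spearman coefficient of 0.083, as a description over genes, which are not independent. The number of genes depended on single arrays: it was 300 without the first Casp1-null liver, 89 without the first, 78 without the second and 81 without the third WT liver, and 93 without the first WT jejunum. All 145 kept their sign, and 68 passed, in each of the 12 fits that left out 1 array.

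**Figure D1:**
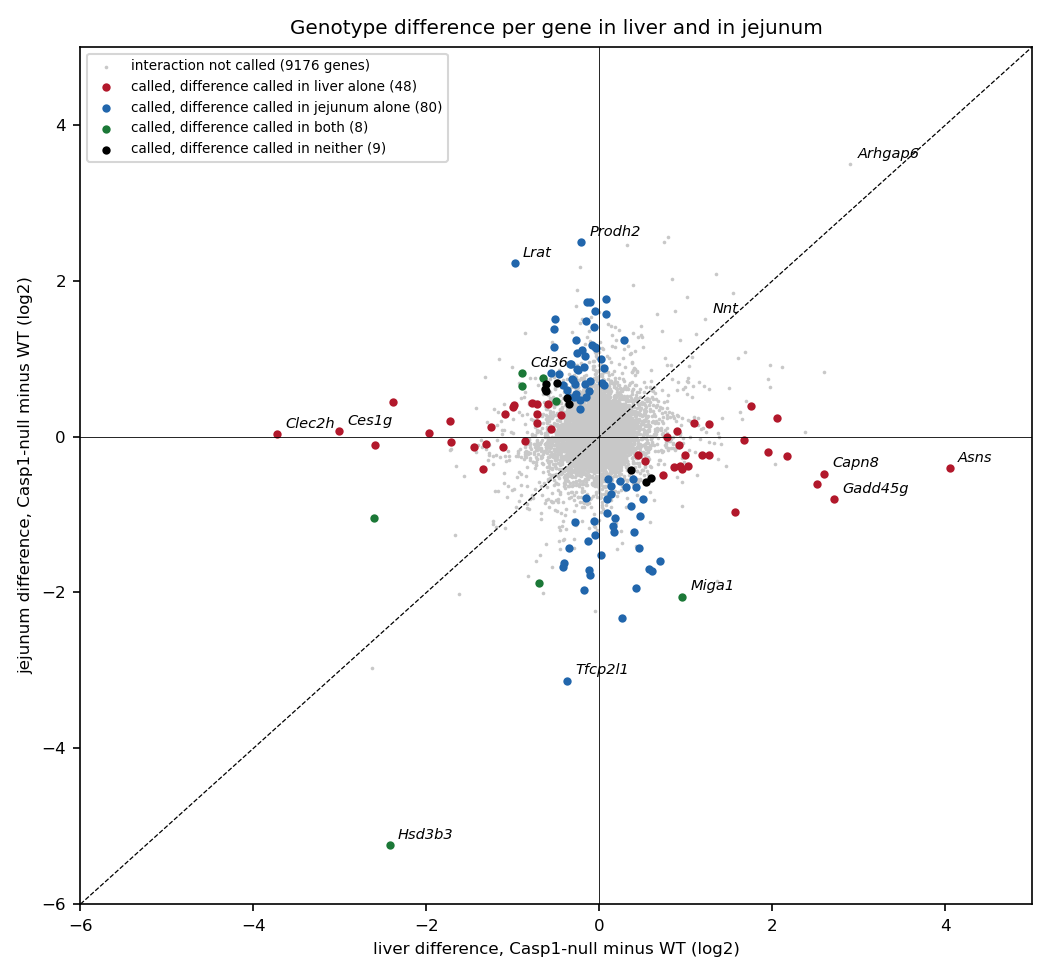
Genotype difference of every member gene in liver (x axis) and in jejunum (y axis), both as Casp1-null minus WT in log2 units. Colours mark the 145 genes with a called interaction by the tissue in which the difference passed, and the dashed line marks equal differences; the 48 liver genes lie mostly along the horizontal axis, the 80 jejunum genes along the vertical axis, and Arhgap6 and Nnt, not called, near the dashed line.

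The largest interaction belonged to Asns, asparagine synthetase, which makes asparagine from aspartate and glutamine and is a known target of the amino acid response. Asns was 9.92, 10.05 and 10.23 in Casp1-null livers, against 6.24, 6.06 and 5.75 in WT livers. The jejunum values were 10.41, 9.55 and 9.55 in Casp1-null mice and 9.87, 10.40 and 10.46 in WT mice. The liver groups were far apart, while the jejunum groups overlapped, and Casp1-null livers lay at the level of the jejunum. The liver difference was 4.05 (adjusted p = 4.67e-06), the jejunum difference -0.41 (adjusted p = 0.562) and the interaction 4.46 ± 0.34 (SE, adjusted p = 7.4e-05). The duodenum and ileum differences were 0.01 and 0.33.

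Igsf23, an immunoglobulin superfamily member, and Capn8, a calpain protease of the gastrointestinal tract, were also higher in Casp1-null livers, with smaller differences of opposite sign in jejunum. Igsf23 was 8.16, 8.12 and 8.27 in Casp1-null livers and 5.78, 5.86 and 5.37 in WT livers. Igsf23 in jejunum was 11.26, 10.83 and 10.95 in Casp1-null mice and 11.67, 11.58 and 11.62 in WT mice, without overlap and with a difference of -0.61 (adjusted p = 0.0578). The interaction was 3.13 ± 0.20 (adjusted p = 1.8e-05). Capn8 was 8.18, 8.06 and 8.17 in Casp1-null livers, against 5.48, 5.59 and 5.55 in WT livers, and its arrays did not overlap in jejunum either, at 6.80, 6.63 and 6.79 in Casp1-null mice against 7.47, 7.10 and 7.08 in WT mice. Its interaction was 3.07 ± 0.16 (adjusted p = 3e-06).

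Gadd45g, a growth arrest and stress gene, was 8.06, 8.65 and 9.31 in Casp1-null livers, against 6.77, 5.53 and 5.59 in WT livers. The jejunum values were 6.87, 7.36 and 6.10 in Casp1-null mice and 8.06, 7.53 and 7.13 in WT mice, with overlapping arrays. Its interaction was 3.51 ± 0.61 (adjusted p = 0.0228), and the call was lost without any 1 of 6 arrays, where the adjusted p reached 0.0689 (Casp1-null livers 2 and 3, WT livers 2 and 3, and WT jejunum 1 and 2). Gpat3, a glycerol-3-phosphate acyltransferase that starts triglyceride synthesis, was 7.50, 8.41 and 8.61 in Casp1-null livers and 6.01, 5.92 and 6.10 in WT livers. In jejunum Gpat3 was 10.27, 10.33 and 10.23 in Casp1-null mice, against 10.57, 10.51 and 10.48 in WT mice. It was the only one of the 17 triglyceride and phospholipid synthesis genes with a called interaction (2.40 ± 0.31, adjusted p = 0.00369), against 1.56% of all members. Lnx1, a ubiquitin ligase, and Ceacam2, a cell adhesion molecule, were not over the median in WT liver, so their liver differences are bounds. Lnx1 was at least 2.69-fold higher in Casp1-null livers and Ceacam2 at least 2.34-fold, with interactions of 2.14 (adjusted p = 0.00106) and 2.53 (adjusted p = 0.0028).

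**Figure D2:**
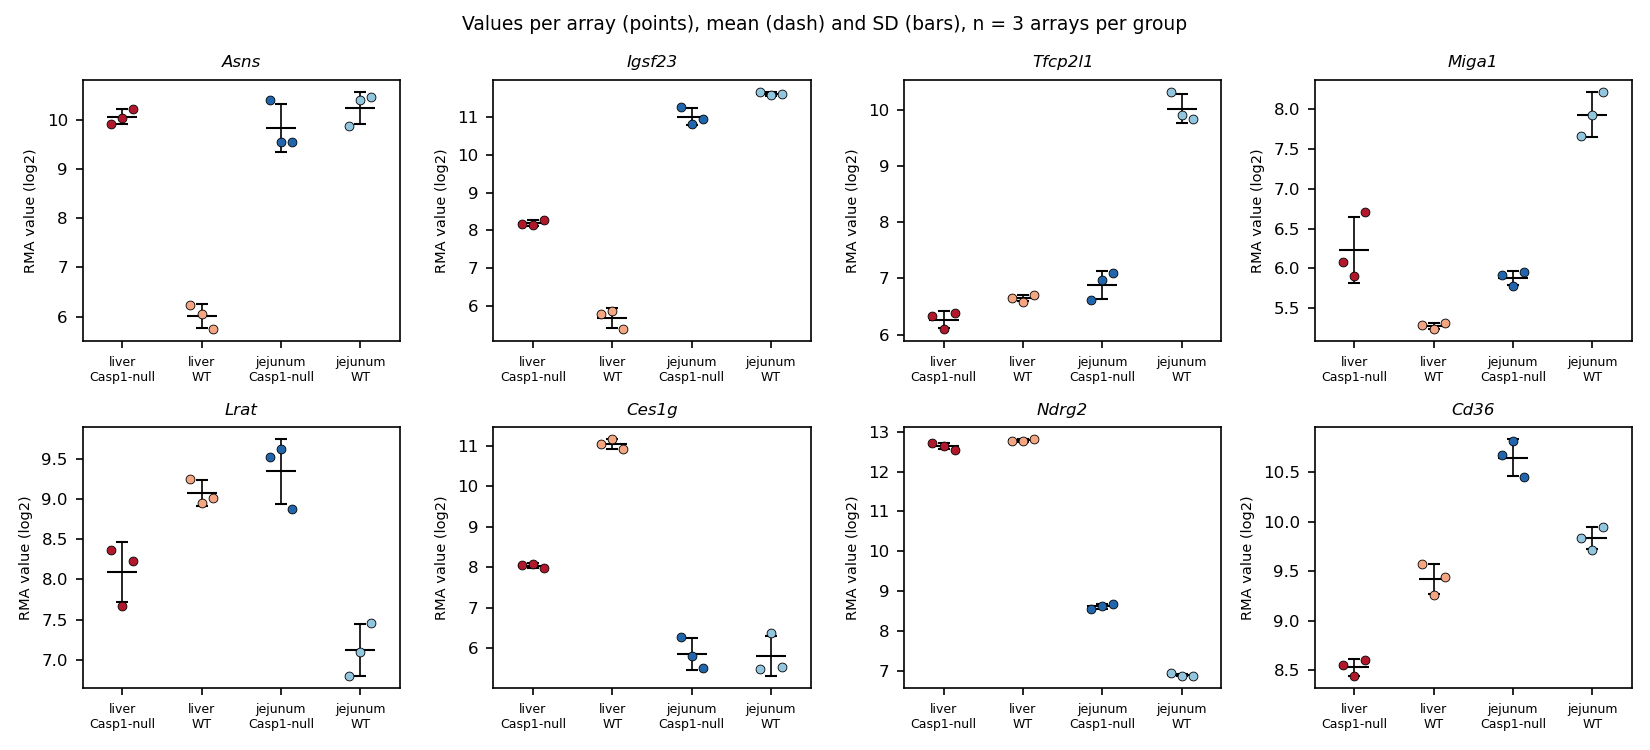
Values of 8 genes on each of the 12 arrays (log2, y axis; points in replicate order), with the mean as a dash and the SD as bars, n = 3 per group. Asns and Igsf23 differed mainly in liver, Tfcp2l1 and Ndrg2 in jejunum, Ces1g in liver in the other direction, and Miga1, Lrat and Cd36 show differences of opposite sign in the 2 tissues.

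The promoters of Asns and Gadd45g are shown because both genes were higher in Casp1-null livers alone and both windows hold the amino acid response motif TGATGNAA, known as the site of ATF4 and C/EBP proteins in Asns. The 250 bases before the annotated start are from RefSeq on GRCm38.p6, with the motif in capitals on either strand.
Asns (chr6:7693210-7693459, minus strand): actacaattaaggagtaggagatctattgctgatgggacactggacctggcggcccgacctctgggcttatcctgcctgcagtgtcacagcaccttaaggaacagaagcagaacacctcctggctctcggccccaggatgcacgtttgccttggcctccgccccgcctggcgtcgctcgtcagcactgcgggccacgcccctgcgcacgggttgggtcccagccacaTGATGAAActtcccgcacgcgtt
Gadd45g (chr13:51846425-51846674, plus strand): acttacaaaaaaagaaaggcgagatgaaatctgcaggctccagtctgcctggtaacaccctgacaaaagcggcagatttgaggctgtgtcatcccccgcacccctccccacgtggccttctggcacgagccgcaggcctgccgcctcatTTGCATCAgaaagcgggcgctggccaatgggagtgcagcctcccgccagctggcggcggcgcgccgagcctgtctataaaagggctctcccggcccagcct
The motif, searched on both strands, begins 23 bases before the start in Asns and lies on the opposite strand, 101 bases before the start, in Gadd45g. It occurred in 3.91% of all genes with a window and in 2.45% of the members with one. Of the 22 genes with a window that passed in liver alone and were higher in Casp1-null livers, Asns and Gadd45g were the 2 that held it (9.09%), and of the 16 that were lower, 1 did (6.25%). A match is a run of letters and was not tested for binding.

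The other genes of the amino acid response did not follow Asns past the test. Of 29 members of the list, Asns was the 1 with a called interaction (against 1.56% of all members), 22 interactions were positive, and the median was 0.22, against -0.041 over all members. The mean of the list stood apart in the third WT jejunum, at 8.43, against 7.80 and 7.99 in the other WT jejunum arrays and 7.82 to 8.01 in Casp1-null jejunum, and without that array the median interaction was 0.08. Atf4, which encodes the transcription factor of this response, differed by 0.08 in liver and -0.14 in jejunum. Chac1, a glutathione-degrading target, was 7.77, 7.45 and 7.59 in Casp1-null livers, against 6.84, 6.85 and 6.25 in WT livers, without overlap. Its interaction of 1.85 did not pass (adjusted p = 0.269), nor did that of Ddit4, an inhibitor of mTORC1 signalling (1.42, adjusted p = 0.216). The motif was present in 6 of the 23 list members with a window (Asns, Chac1, Nupr1, Gars, Atf3 and Vldlr). Psph and Phgdh, of serine synthesis, had liver differences of -0.15 and -0.03.

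Ces1g, Angptl8 and Lgals1 were lower in Casp1-null livers, with jejunum differences that did not pass. Ces1g, a carboxylesterase that acts on stored and lipoprotein lipid, was 8.05, 8.09 and 7.97 in Casp1-null livers, against 11.06, 11.17 and 10.93 in WT livers. In jejunum Ces1g was 6.28, 5.80 and 5.50 in Casp1-null mice and 5.47, 6.36 and 5.54 in WT mice. The liver groups were apart and the jejunum groups overlapped, with an interaction of -3.08 ± 0.33 (adjusted p = 0.00112). Near-identical Ces1 genes may share its signal. Angptl8, which feeding induces and which inhibits lipoprotein lipase, was 8.09, 7.86 and 7.09 in Casp1-null livers, against 10.64, 9.92 and 10.26 in WT livers, and its jejunum difference was -0.10. Its interaction was -2.49 ± 0.38 (adjusted p = 0.0104). Lgals1, a galectin of stroma and immune cells, was 7.41, 6.23 and 6.44 in Casp1-null livers and 9.03, 9.25 and 8.96 in WT livers, with an interaction of -2.83 (adjusted p = 0.0284). The call was lost without any 1 of 8 arrays, with an adjusted p of up to 0.0823 (Casp1-null livers 2 and 3, every WT liver, Casp1-null jejunum 2, and WT jejunum 2 and 3), and in the fit of all 24 arrays (adjusted p = 0.197). In jejunum Lgals1 was 5.70, 6.20 and 7.07 in Casp1-null mice and 6.31, 5.60 and 5.74 in WT mice, highest in the array that was also high in stromal markers, whose part in the result was not tested.

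Among the lists of pathways with 10 or more members, fatty acid synthesis had the lowest median interaction, -0.67 over 20 members, made of a median of -0.61 in liver and 0.14 in jejunum. Of its 20 interactions 17 were negative, but none passed the adjusted test, against 1.56% of all members. An unadjusted p under 0.05 was found for 11 of the 20, against 18.6% of all members. For Acaca, the probe set used gave -1.36 (adjusted p = 0.115). Its second, dimmer probe set gave -1.57 and did pass (adjusted p = 0.0445). In liver, 3 members fell, Acly, Pklr and Mid1ip1, and 1 rose, Insig2, which encodes a protein that holds back SREBP. Of all members, 1.54% were called lower and 1.17% higher in liver. Acly, which makes cytosolic acetyl-CoA, was 9.42, 8.72 and 8.29 in Casp1-null livers and 10.13, 10.29 and 9.68 in WT livers. In jejunum Acly was 7.71, 7.92 and 8.03 in Casp1-null mice, against 7.43, 7.54 and 7.64 in WT mice, also without overlap and in the other direction. Its interaction was -1.57 (adjusted p = 0.0693). Srebf1, the lipogenic transcription factor, was 8.87, 7.32 and 7.10 in Casp1-null livers, against 8.78, 9.62 and 9.17 in WT livers. The first Casp1-null liver lay among the WT livers, and the other 2 well below. Fasn, fatty acid synthase, was 10.38, 9.43 and 8.84 in Casp1-null livers and 10.83, 11.01 and 10.54 in WT livers, without overlap, and its first Casp1-null liver was the nearest to the WT livers. Without the first Casp1-null liver, 7 of the 20 interactions passed, all negative, and the median stayed at -0.67. Calls rose over all members in that fit as well, to 300 of the 9321, 171 of them negative, against 145 with every array. Cholesterol synthesis genes had a median interaction of -0.33, and none of 20 passed.

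**Figure D3:**
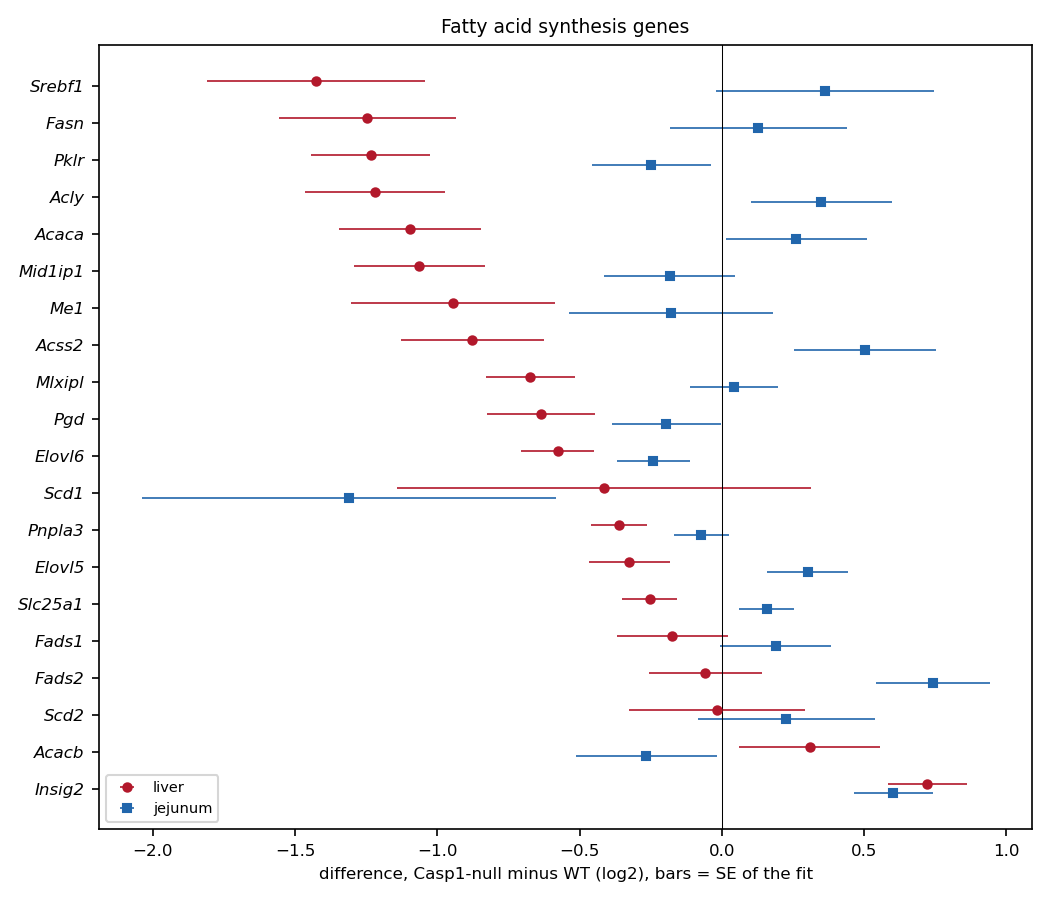
Casp1-null minus WT difference (log2, x axis) of the 20 fatty acid synthesis genes in liver (red circles) and jejunum (blue squares), with the SE of the fit as bars. The liver differences of Srebf1, Fasn, Pklr, Acly and Acaca lie furthest left of 0, those of Acacb and Insig2 lie right of it, and the jejunum differences lie on both sides of 0 with Scd1 furthest left.

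The genes of lipoprotein assembly were near level in both tissues. Among 29 members the median difference was -0.04 in liver and -0.08 in jejunum. Ces1g was the 1 called interaction, against 1.56% of all members. Apob, the structural protein of these lipoproteins, differed by 0.04 in liver and 0.01 in jejunum, and Mttp, which loads lipid onto it, by -0.09 and -0.10. Apoa4, secreted with chylomicrons, was 11.77, 12.64 and 12.89 in Casp1-null livers, against 11.13, 11.05 and 10.99 in WT livers, and differed by 0.04 in jejunum. It rose in liver (adjusted p = 0.00838), while its interaction of 1.33 did not pass (adjusted p = 0.0816).

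Among genes that passed in jejunum alone, the largest positive interaction was that of Tfcp2l1, a grainyhead-like transcription factor of epithelia. Tfcp2l1 was 6.61, 6.97 and 7.09 in Casp1-null jejunum, against 10.32, 9.91 and 9.83 in WT jejunum. In liver it was 6.33, 6.10 and 6.38 in Casp1-null mice and 6.66, 6.58 and 6.70 in WT mice. The jejunum groups were over 2 log2 units apart at their nearest arrays, and the interaction was 2.75 ± 0.22 (adjusted p = 9.4e-05). The gene was also lower in duodenum (-1.21) and ileum (-2.13), without overlap in either. Scoc, a coiled-coil protein of the Golgi, fell by 1.95 in jejunum and differed by 0.42 in liver (interaction 2.36, adjusted p = 0.0125). Its second probe set gave -2.20 and -0.80, and an interaction of 1.40 (adjusted p = 0.0489), so the probe sets disagree on the sign in liver. Fyb2, an adaptor protein, was lower in jejunum by -1.73 and 0.61 higher in liver, where it did not pass, with an interaction of 2.34 (adjusted p = 0.00317). Pcp4l1, a calmodulin-binding peptide, was not over the median in Casp1-null jejunum, and its interaction of 2.59 (adjusted p = 0.00323) did not pass with values under the lowest array median set to that median (adjusted p = 0.0594) or in the fit of 24 arrays (adjusted p = 0.247).

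Other genes were higher in Casp1-null jejunum, with liver differences that did not pass. Ndrg2, a stress-regulated gene of differentiated cells, was 8.57, 8.63 and 8.69 in Casp1-null jejunum, against 6.95, 6.88 and 6.88 in WT jejunum. In liver it was 12.71, 12.65 and 12.55 in Casp1-null mice and 12.76, 12.76 and 12.81 in WT mice. The arrays varied little within groups, and the interaction was -1.87 ± 0.11 (adjusted p = 9e-06). St3gal1, a sialyltransferase, had an interaction of -1.83 (adjusted p = 0.00115), from a jejunum difference of 1.72, but its second, dimmer probe set gave -0.05. Adi1, of the methionine salvage pathway, was 7.95, 7.56 and 7.35 in Casp1-null jejunum and 6.08, 6.41 and 6.24 in WT jejunum, with an interaction of -1.90 (adjusted p = 0.00253). Its liver difference was -0.527, without overlap. Acaa2, a mitochondrial thiolase of fatty acid oxidation, was 12.54, 12.37 and 12.54 in Casp1-null jejunum, against 11.06, 11.41 and 11.56 in WT jejunum. It was 12.89, 12.91 and 12.82 in Casp1-null livers and 12.91, 12.88 and 12.96 in WT livers, near the top of the array's range, with an interaction of -1.18 (adjusted p = 0.00759). Acaa2 was the 1 called interaction among 30 fatty acid oxidation and ketogenesis genes, whose median was 0.05, against 1.56% called among all members. Tox, an HMG-box factor, was 8.09, 8.73 and 9.09 in Casp1-null jejunum, against 7.21, 6.86 and 7.33 in WT jejunum, and differed by -0.516 in liver, with overlap. Its interaction was -2.02 (adjusted p = 0.0375), and its call was lost without any 1 of 9 arrays. Sh3bp4, which binds endocytic proteins, differed by 1.14 in jejunum, with an interaction of -1.67 (adjusted p = 0.0409) that was likewise lost without any 1 of 9 arrays. In liver it differed by -0.525, without overlap, and Casp1-null livers were not over the median.

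Most of the jejunal differences had the same sign in the other intestinal segments. Of the 80 genes that passed in jejunum alone, 74 had the same sign in duodenum and 65 in ileum, with no overlap between groups in 61.3% and 45%. Over all members, 67.7% shared the jejunal sign in duodenum and 62% in ileum, and 23.2% and 8.84% did so without overlap. Of the 48 genes that passed in liver alone, 21 (43.8%) had the liver's sign in duodenum and 22 (45.8%) in ileum, against 54.7% and 52.3% of all members. These 48 were chosen by a called interaction, which favours a jejunum sign opposite to the liver's. Of them, 19 were higher in liver and lower in jejunum, and 16 the reverse. Their shares in duodenum and ileum therefore cannot show that an effect was confined to liver. All shares here are counts over genes, without a test. The labels do not say whether the intestinal segments came from the same mice.

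Genes of amino acid breakdown differed in jejunum in both directions. Of 28 members, 2 interactions were called positive and 2 negative, with a median of -0.05, against 1.56% called among all members. In jejunum 4 genes rose and 2 fell, against 3.57% of all members called, and in liver none passed, against 2.71%. Prodh2, which breaks down hydroxyproline, was 7.47, 7.41 and 6.80 in Casp1-null jejunum, against 4.80, 4.75 and 4.64 in WT jejunum, where it was not over the median. It was therefore at least 5.08-fold higher, and in liver it was 9.71, 9.75 and 9.69 in Casp1-null mice and 9.74 to 10.05 in WT mice. The interaction was -2.71 ± 0.23 (adjusted p = 0.000141). Fah, the last enzyme of tyrosine breakdown, was 7.22, 6.92 and 6.36 in Casp1-null jejunum and 4.76, 5.14 and 5.29 in WT jejunum, with an interaction of -1.69 (adjusted p = 0.0202). That call was lost without any 1 of 6 arrays (adjusted p up to 0.0573) and in the fit of 24 arrays (adjusted p = 0.0677). Fah was also higher in Casp1-null duodenum by 2.83 and ileum by 2.53. Mccc1, a subunit of the leucine-breakdown enzyme methylcrotonyl-CoA carboxylase, was 5.69, 5.87 and 5.63 in Casp1-null jejunum, against 7.46, 7.27 and 7.48 in WT jejunum, and differed by -0.42 in liver. Its interaction was 1.25 ± 0.19 (adjusted p = 0.00858). Tat, the first enzyme of tyrosine breakdown, was not over the median in Casp1-null jejunum. Its interaction of 2.29 (adjusted p = 0.036) was lost without any 1 of 9 arrays, in the fit of 24 arrays (adjusted p = 0.0708) and with low values set to the lowest array median (adjusted p = 0.187).

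The called interactions of the retinol, alcohol and aldehyde dehydrogenase list were those of Lrat, Bco1 and Rdh16. Bco1 cleaves dietary β-carotene to retinal, Rdh16 is a retinol dehydrogenase, and Lrat esterifies retinol for storage in liver and for transport in chylomicrons. Lrat was 8.37, 7.67 and 8.23 in Casp1-null livers, against 9.26, 8.95 and 9.01 in WT livers. Lrat in jejunum was 9.53, 9.62 and 8.88 in Casp1-null mice and 6.80, 7.10 and 7.46 in WT mice. The groups did not overlap in either tissue and the order was reversed, with differences of -0.98 in liver (adjusted p = 0.0761) and 2.23 in jejunum (adjusted p = 0.000671). The interaction was -3.21 ± 0.34 (adjusted p = 0.000942). Bco1 ran the other way, at 7.55, 7.42 and 7.36 in Casp1-null livers and 6.79, 6.92 and 6.89 in WT livers. In jejunum Bco1 was 4.92, 5.35 and 5.19 in Casp1-null mice, against 7.33, 6.94 and 6.30 in WT mice, again without overlap in either tissue. Its interaction was 2.27 ± 0.30 (adjusted p = 0.00421). Rdh16 was 8.41, 8.64 and 8.17 in Casp1-null jejunum and 7.20, 7.35 and 7.36 in WT jejunum, and differed by -0.20 in liver. Its interaction of -1.31 (adjusted p = 0.00323) did not pass in the fit of 24 arrays (adjusted p = 0.313). Over the 28 members of the list 22 interactions were negative, with a median of -0.22, and these 3 calls compare with 1.56% of all members. In duodenum and ileum, Lrat differed by 0.72 and 0.76 and Bco1 by -0.26 and -0.08, smaller than in jejunum.

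For 5 genes the difference passed in both tissues with opposite signs: Cd36, Hspb6, Man2a2, Echdc2 and Miga1. Cd36, a fatty acid translocase of the plasma membrane, was 8.55, 8.44 and 8.60 in Casp1-null livers, against 9.57, 9.27 and 9.44 in WT livers. In jejunum Cd36 was 10.68, 10.82 and 10.45 in Casp1-null mice and 9.84, 9.72 and 9.95 in WT mice. It fell in liver by 0.89 (adjusted p = 0.00267) and rose in jejunum by 0.81 (adjusted p = 0.00545), and the interaction was -1.71 ± 0.17 (adjusted p = 0.000562). In the fit of 24 arrays, which takes its spread from duodenum and ileum as well, the interaction of Cd36 did not pass (adjusted p = 0.658). It was the 1 called interaction among 19 genes of fatty acid and sterol uptake and efflux, against 1.56% of all members. Miga1, a protein of mitochondrial fusion, was the only one of the 5 that was higher in Casp1-null livers, at 6.08, 5.91 and 6.71 against 5.29, 5.24 and 5.31 in WT livers. In jejunum it was 5.91, 5.78 and 5.95 in Casp1-null mice and 7.66, 7.92 and 8.22 in WT mice, with an interaction of 3.00 ± 0.27 (adjusted p = 0.000255). Hspb6, a small heat shock protein, Man2a2, a mannosidase of N-glycan processing, and Echdc2, an enoyl-CoA hydratase family member, had interactions of -1.54, -1.40 and -0.96, each lower in liver and higher in jejunum. Hspb6 and Man2a2 did not pass in the fit of 24 arrays (adjusted p = 0.687 and 0.0639).

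In the inflammasome, interferon and NF-κB lists, the called interactions belonged to genes that were lower in Casp1-null jejunum, namely Casp4, Oasl2, Cxcl16 and Birc3. Casp4, the caspase-11 gene that senses lipopolysaccharide in the cytosol and lies beside Casp1 on chromosome 9, was 7.29, 7.29 and 6.68 in Casp1-null jejunum, against 9.03, 8.91 and 9.22 in WT jejunum. In liver it was 5.28, 5.38 and 5.29 in Casp1-null mice and 5.63, 5.40 and 5.46 in WT mice, near the median, with no overlap and a difference of -0.18. The interaction was 1.79 ± 0.22 (adjusted p = 0.00296), and Casp4 was also lower in duodenum (-1.46) and ileum (-1.40). It was the 1 called gene of 13 in the inflammasome and pyroptosis list, whose median interaction was 0.19, against 1.56% called among all members. Oasl2, an interferon-stimulated gene, was 9.10, 8.71 and 8.42 in Casp1-null jejunum and 10.76, 10.62 and 10.19 in WT jejunum, and differed by -0.10 in liver. Its interaction of 1.68 (adjusted p = 0.0156) was the 1 called among 30 interferon-stimulated genes, against 1.56% of all members. The adjusted p was 0.0536 without the second WT liver. The 30 genes had a median difference of -0.20 in liver and -0.42 in jejunum.

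Among the pathway lists with 10 or more members, NF-κB and epithelial oxidase genes had the highest median interaction, 0.51 over 17 members, from -0.05 in liver and -0.56 in jejunum. Cxcl16, a membrane chemokine, and Birc3, an inhibitor of apoptosis downstream of NF-κB, were its 2 called members, against 1.56% of all members. In liver 2 of the 17 passed, both lower, and in jejunum 3, all lower, against 2.71% and 3.57% of all members. Cxcl16 was 8.17, 8.22 and 8.37 in Casp1-null jejunum, against 9.47, 9.12 and 9.44 in WT jejunum. Birc3 was 7.93, 7.75 and 7.94 in Casp1-null jejunum and 8.51, 8.39 and 8.62 in WT jejunum. Both sets of jejunum arrays were apart, but the interactions were small, 0.81 (adjusted p = 0.0449) and 0.77 (adjusted p = 0.0249). They were lost without any 1 of 10 arrays for Cxcl16 and of 6 for Birc3, with adjusted p of up to 0.114 and 0.0747. Without the third WT jejunum, the median interaction of the list was 0.24 and no member was called, and none was called without any 1 WT liver, the second Casp1-null jejunum or the first WT jejunum either. In duodenum and ileum Cxcl16 differed by 0.04 and 0.07, and Birc3 by 0.18 and 0.26. Nfkb2, an NF-κB subunit, fell in jejunum by 1.16 (adjusted p = 0.00607), and its interaction of 1.10 did not pass (adjusted p = 0.0663). Hamp, the iron hormone hepcidin, had an interaction of 1.89 (adjusted p = 0.032). Its jejunal signal was weak, at 3.84, 3.97 and 4.10 in Casp1-null mice against 5.62, 5.65 and 4.93 in WT mice. In liver Hamp was 11.26, 11.82 and 12.29 in Casp1-null mice and 11.48, 11.21 and 11.33 in WT mice, with overlap. With low values set to the lowest array median the interaction did not pass (adjusted p = 0.406).

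In liver, a set of genes typical of intestine was lower in Casp1-null mice. Clec2h, a C-type lectin of intestinal epithelium, was 5.68, 4.95 and 4.80 in Casp1-null livers, against 8.62, 9.52 and 8.48 in WT livers. Clec2h in jejunum was 12.58, 12.50 and 12.44 in Casp1-null mice and 12.46, 12.50 and 12.46 in WT mice. Casp1-null livers were not over the median, so Clec2h was at least 11.5-fold lower there, and its interaction was -3.77 ± 0.38 (adjusted p = 0.000583). Serpinb1a, an inhibitor of neutrophil proteases, was 4.84, 4.75 and 4.74 in Casp1-null livers, also not over the median, and 6.89, 6.77 and 6.58 in WT livers. It was at least 2.95-fold lower in Casp1-null livers, with an interaction of -2.02 (adjusted p = 6.8e-05). Zg16, a lectin of goblet cell granules, was 5.83, 5.76 and 5.68 in Casp1-null livers, against 7.53, 7.96 and 6.95 in WT livers, and both genotypes were near 13 in jejunum. Its interaction was -1.66 (adjusted p = 0.017), with an adjusted p of 0.0511 without the first WT jejunum.

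Most enterocyte and goblet markers were also lower in Casp1-null livers. Zg16 is itself in the goblet list, so that list is not separate from the genes above. The mean over the 16 enterocyte markers was 5.65 to 5.77 in Casp1-null livers and 6.05 to 6.40 in WT livers, and 13 of the 16 were lower in Casp1-null livers, 11 of them without overlap, while liver groups did not overlap, in either direction, for 24% of all members. Over the 8 goblet markers the range was 5.04 to 5.16 in Casp1-null livers and 5.30 to 5.77 in WT livers. Of the 8, 7 were lower, 5 of them without overlap, and 1 was higher without overlap, against the same 24%. Of the B and plasma cell markers, 14 of 15 were lower in Casp1-null livers (7 without overlap), and of the endothelial ones 12 of 16 (5 without overlap). Of the T and NK cell markers 15 of 18 were lower, 4 of them without overlap, and 0 were higher without overlap. The 24% is a share over members, and only 5 of these 18 were members, so the 2 shares are not of like genes. Of the 22 myeloid and Kupffer cell markers, 17 were over the median in liver. Of the 22, 14 were lower in Casp1-null livers, 0 of them without overlap, and 2 were higher without overlap. For proliferation 17 of 23 were lower (2 without overlap), and for stroma 7 of 18 (1 without overlap). In liver, 9 of the 16 enterocyte and 3 of the 8 goblet markers were over the median in at least 1 genotype. So were 5 of the 15 B and plasma cell markers and 5 of the 18 T and NK cell markers. The B and plasma cell list averaged 4.47 to 4.56 in Casp1-null livers and 4.80 to 5.07 in WT livers. Of the 7 Paneth cell markers, another intestinal type, 6 were lower, 2 of them without overlap, and 3 of the 7 were over the median in liver. Of the 14 enteroendocrine markers, also intestinal, 6 were lower and 1 of these was without overlap. None of the 14 was over the median in liver, so they could hardly show a fall. Sis, the brush border sucrase-isomaltase, was 4.30, 3.93 and 4.38 in Casp1-null livers and 5.48, 6.10 and 5.15 in WT livers. Muc2, the goblet cell mucin, was 4.71, 4.54 and 4.64 in Casp1-null livers, against 5.40, 6.24 and 5.63 in WT livers. Sis and Muc2 were both under the median in Casp1-null livers. The second WT liver was the highest in Clec2h, Zg16, Sis and Muc2. Tff3, another goblet marker, ran the other way, at 7.54, 8.27 and 7.78 in Casp1-null livers and 6.87, 6.84 and 6.40 in WT livers. The part of intestinal and immune cells in these results was not tested. Without the second WT liver, the interactions of Clec2h, Serpinb1a and Zg16 still passed. Chrm3, a muscarinic receptor, averaged 3.99 in Casp1-null livers, under the median, and 5.81, 5.65 and 5.69 in WT livers. It was at least 1.44-fold lower in Casp1-null livers, and its jejunum arrays, 5.93, 5.79 and 5.87 in Casp1-null mice and 5.87, 5.46 and 5.67 in WT mice, overlapped.

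**Figure D4:**
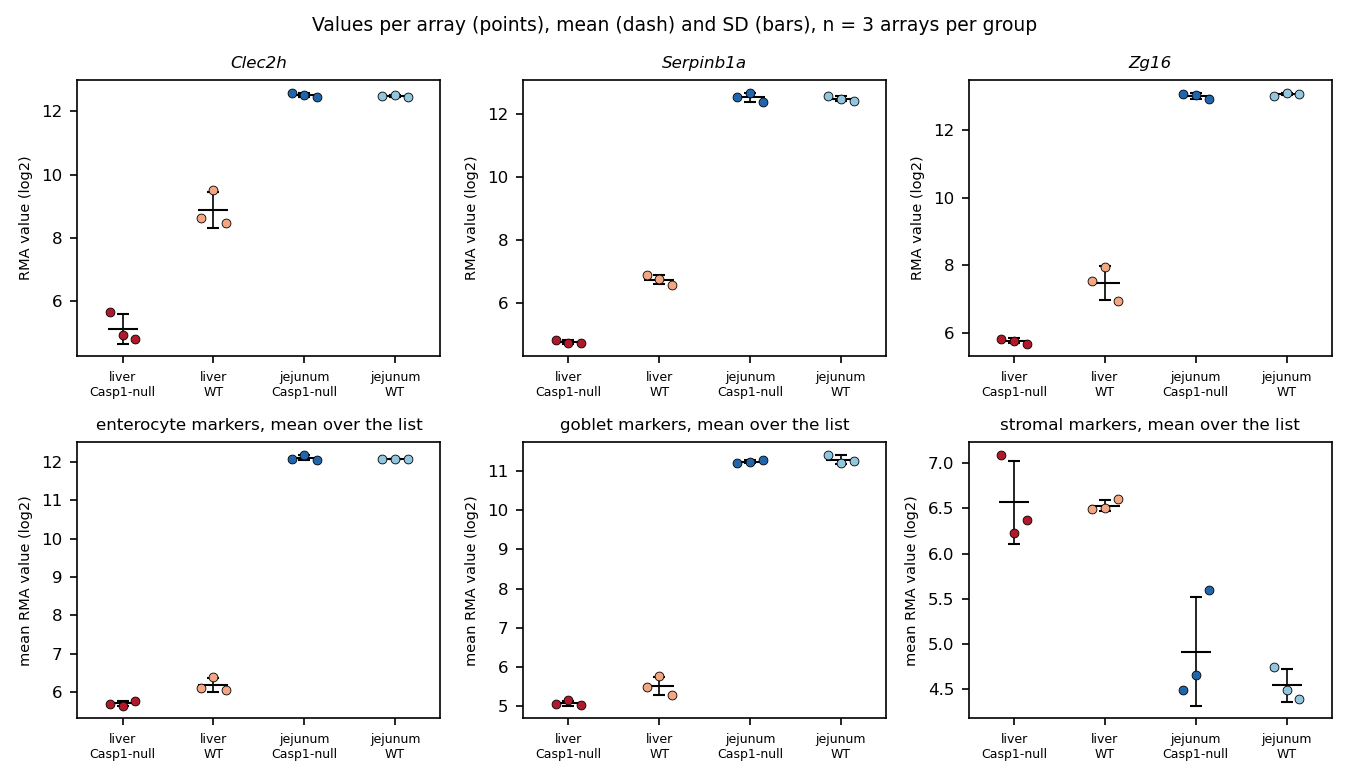
Values on each of the 12 arrays (log2, y axis; points in replicate order, dash = mean, bars = SD, n = 3 per group) of Clec2h, Serpinb1a and Zg16, and the mean over the enterocyte, goblet and stromal marker lists. Casp1-null livers lie below WT livers in the first 5 panels, and in the stromal panel the third Casp1-null jejunum stands above the other jejunum arrays.

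Beside the genes that differed between organs stood 36 that passed in both tissues with the same sign and without a called interaction. Arhgap6 was 9.26, 9.51 and 9.56 in Casp1-null livers, against 6.91, 6.38 and 6.35 in WT livers. In jejunum it was 6.31, 6.65 and 7.06 in Casp1-null mice, while WT mice were under the median, so it was at least 3.46-fold higher there. Nnt, the mitochondrial transhydrogenase that is deleted in part in the C57BL/6J strain, was 10.44, 10.27 and 10.25 in Casp1-null livers and averaged 9.10 in WT livers. In jejunum Nnt was 8.93, 8.90 and 8.75 in Casp1-null mice, against 7.16, 7.34 and 7.55 in WT mice, and its interaction was -0.29 (adjusted p = 0.522). Its second probe set differed by 0.03 in liver and 0.12 in jejunum. Hddc3 rose by 1.35 in liver and 2.09 in jejunum, Ocel1 by 1.01 and 1.80, and Hccs, the holocytochrome c synthase, by 1.03 and 0.91. Rpl34, a ribosomal protein whose processed copies may share its signal, fell by 1.67 in liver and by 1.26 in jejunum. Camk2b, a calmodulin-dependent kinase, fell by 2.03 in jejunum and was at least 2.27-fold lower in Casp1-null livers, where it was not over the median.

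In 3 further genes the sign was shared but the size differed. Pttg1, the securin of mitosis, was 5.30, 4.81 and 4.96 in Casp1-null livers, against 7.67, 7.51 and 7.70 in WT livers, and 5.52, 5.66 and 5.89 in Casp1-null jejunum, against 6.80, 6.65 and 6.74 in WT jejunum. Casp1-null livers were not over the median, so Pttg1 was at least 5.29-fold lower there, and its interaction was -1.56 ± 0.19 (adjusted p = 0.00281). B3gnt3, a glycosyltransferase of core structures on mucin-type sugars, fell by 0.70 in liver and by 1.88 in jejunum, with an interaction of 1.18 (adjusted p = 0.00302). Hsd3b3, a steroid dehydrogenase, was 9.21, 8.31 and 7.96 in Casp1-null livers, against 11.05, 10.93 and 10.78 in WT livers. In jejunum it was under the median in Casp1-null mice and 8.23, 8.20 and 8.71 in WT mice, at least 11.3-fold lower in Casp1-null mice. Its interaction of 2.82 (adjusted p = 0.00474) did not pass with low values set to the lowest array median (1.07, adjusted p = 0.391), and near-identical Hsd3b genes may share its signal.

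Several large lists held no called interaction. Genes of the respiratory chain had none among 69, with a median of 0.05, and the proteasome none among 33, with a median of 0.02. Ribosomal proteins had 60 of 66 interactions negative, with a median of -0.24 from -0.03 in liver and 0.20 in jejunum, and none was called. Their 13 genes with an unadjusted p under 0.05 are near the 18.6% of all members. Genes of endoplasmic reticulum folding had 20 of 26 positive, with a median of 0.19, and heat shock genes 13 of 15, with a median of 0.38, and neither list held a called gene. The stromal marker genes had 9 of 11 interactions negative, with a median of -0.72, and the myeloid ones 10 of 12, with a median of -0.97, both highest in the third Casp1-null jejunum among the jejunum arrays. Among 25 cytochromes P450, Cyp2d26 was the 1 called, against 1.56% of all members. Its interaction of -0.58 (adjusted p = 0.0346) was lost without any 1 of 10 arrays.

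**Figure D5:**
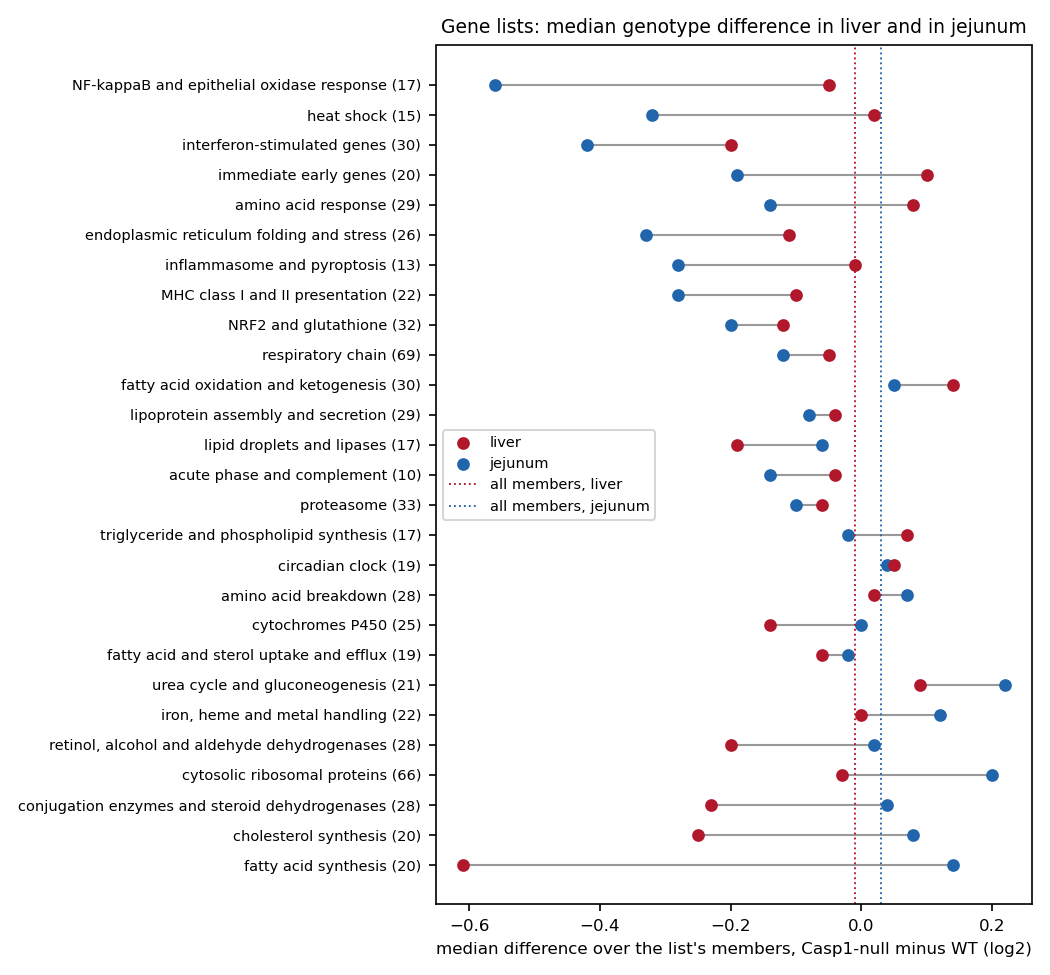
Median Casp1-null minus WT difference (log2, x axis) over the members of each pathway list with 10 or more members (number in brackets; cell type marker lists are not shown) in liver (red) and jejunum (blue), ordered by the median interaction. Dotted lines mark the medians over all members, -0.01 in liver and 0.03 in jejunum; of the lists shown, fatty acid synthesis lies furthest left in liver, and NF-κB furthest left in jejunum.

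Of 38 members named as microRNA genes, Mir15a was the 1 with a called interaction, against 1.56% of all members. It was chosen here after its values had been seen. Its mature sequences, from RefSeq on GRCm38.p6 (chromosome 14), are shown because they are the products of that gene, with the seed (bases 2 to 8) in capitals.
mmu-miR-15a-5p: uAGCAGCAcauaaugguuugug
mmu-miR-15a-3p: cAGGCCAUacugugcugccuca
The arrays measured total RNA over the gene, not the mature forms. Mir15a was 7.04, 6.88 and 6.59 in Casp1-null livers, against 7.70, 7.94 and 7.83 in WT livers, and 6.98, 7.19 and 7.28 in Casp1-null jejunum, against 6.60, 6.78 and 6.85 in WT jejunum. The groups were apart in both tissues and in opposite directions, with an interaction of -1.40 ± 0.19 (adjusted p = 0.00484).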

How the data were processed

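RNA was measured on Affymetrix gene arrays, 1 array per sample, from 100 ng of total RNA with integrity numbers over 8, per the labels' protocols. The deposited log2 values had been summarised by the authors with RMA, per the submitters' processing notes. The RMA version, and whether the tissues were normalised together, are not given in the sources used here. Array data have no read depth, and 3 arrays per group limit the precision; an exact permutation test of 3 against 3 cannot go below a p of 0.1.

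A linear model of 4 groups on 12 arrays (8 residual degrees of freedom) was fitted to 35556 probe sets by lmFit and eBayes of limma 3.58.1, under R 4.3.3. Benjamini-Hochberg adjustment ran over all probe sets for each contrast, and a call is an adjusted p under 0.05. Of the probe sets, 21218 carried 1 gene symbol, 1881 several and 12457 none, and only the first were named. For the 1062 members with more than 1 probe set, that with the highest mean over 12 arrays was used. Symbols were updated through the RefSeq table of GRCm38.p6, in which 21185 probe sets were found.

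A group is called under the median when its mean was not over the medians of its arrays. Bounds written as "at least" set values under a tissue's lowest array median to that median. The text names the largest called interactions each way, genes called in both tissues, up to 4 members of each list by interaction p, and Casp1 and Nnt. Some further list members, and Mir15a, were named after their values had been seen. The members and lists were chosen with earlier results of these data known. The fit was tested on simulated data before use. Duodenum and ileum differences come from a fit of all 24 arrays and are given without a test. Alternatives changed the normalisation, array weights, fit, floor, membership, probe set rule, replicate block and each array in turn.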

Additional observations from a re-analysis of the deposited data

Results flagged for a closer look

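The difference between Casp1-null and WT mice was itself different in liver and jejunum, by the interaction in limma at an adjusted p under 0.05, for 145 genes and for the named genes below. Groups of 3 arrays are too small for a check of single outlying samples.

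Among genes over the median in all 4 groups, positive interactions, with the liver difference above that in jejunum, were Asns 4.46, Gadd45g 3.51, Igsf23 3.13, Capn8 3.07, Miga1 3.00, Tfcp2l1 2.75, Gpat3 2.40 and Scoc 2.36. Those of Fyb2 (2.34), Bco1 (2.27), Casp4 (1.79), Oasl2 (1.68), Mccc1 (1.25), B3gnt3 (1.18), Cxcl16 (0.81) and Birc3 (0.77) were smaller. Negative interactions were Lrat -3.21, Ces1g -3.08, Lgals1 -2.83, Angptl8 -2.49, Tox -2.02, Adi1 -1.90, Ndrg2 -1.87 and St3gal1 -1.83. Those of Cd36 (-1.71), Fah (-1.70), Zg16 (-1.66), Hspb6 (-1.54), Man2a2 (-1.40), Rdh16 (-1.31), Acaa2 (-1.18), Echdc2 (-0.96) and Cyp2d26 (-0.58) were smaller in size.

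Another 12 genes had 1 group not over the median, so that their fitted interactions have no exact size or rank. The fitted values, each followed by the smallest size it allows with low values set to the lowest array median, were 2.82 and 1.07 for Hsd3b3, 2.59 and 1.44 for Pcp4l1, 2.53 and 2.19 for Ceacam2, and 2.29 and 1.69 for Tat. They were 2.14 and 1.62 for Lnx1, 1.89 and 0.97 for Hamp, -3.77 and -3.56 for Clec2h, and -2.71 and -2.56 for Prodh2. They were -2.02 and -1.61 for Serpinb1a, -1.93 and -0.73 for Chrm3, -1.67 and -1.59 for Sh3bp4, and -1.56 and -1.36 for Pttg1.

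Of these 45 named genes, 33 passed in every fit that left out 1 array, and 12 were lost in at least 1. Cxcl16 was lost without any array but the first Casp1-null liver and the second WT jejunum (adjusted p up to 0.114), and Cyp2d26 without any but the first Casp1-null liver and the third Casp1-null jejunum (up to 0.1). Tat was lost without the second or the third Casp1-null liver, any 1 WT liver, any 1 Casp1-null jejunum or the second WT jejunum (up to 0.0993). Tox was lost without the second Casp1-null liver, any 1 WT liver, the second or the third Casp1-null jejunum or any 1 WT jejunum (up to 0.101). Sh3bp4 was lost without the second or the third Casp1-null liver, any 1 WT liver, the third Casp1-null jejunum or any 1 WT jejunum (up to 0.108). Hamp was lost without the second Casp1-null liver, any 1 WT liver, any 1 Casp1-null jejunum, or the first or second WT jejunum (up to 0.0892). Fah was lost without the third Casp1-null liver, any 1 WT liver, the second Casp1-null jejunum or the first WT jejunum (up to 0.0573). Birc3 was lost without any 1 WT liver, the second Casp1-null jejunum, or the first or the third WT jejunum (up to 0.0747). Gadd45g, Lgals1, Oasl2 and Zg16 were lost without the arrays named beside their values.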

How the results depend on the processing

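The interaction passed for 145 genes, and for 241 in a fit of all 24 arrays, 220 with array weights, 318 with the mean over a gene's probe sets and 22 when a minimum of 1.5-fold was tested. For liver the count was 253, against 381 with 24 arrays and 26 at 1.5-fold. For jejunum it was 333, against 511 with the mean over probe sets and 35 at 1.5-fold. For the mean of both tissues it was 390, against 595 and 16. Leaving out 1 array gave 78 to 300 genes for the interaction, 134 to 498 for liver, 174 to 328 for jejunum and 258 to 513 for the mean. For liver each of the 6 liver arrays moved the count by over 1.5 times (without Casp1-null livers 1, 2 and 3: 498, 134 and 148; without WT livers 1, 2 and 3: 151, 141 and 134), and for jejunum the first (174) and second (190) WT jejunum did. Equal replicate numbers did not pair the samples (r of -0.19 to 0.21 over 18 pairs, 2 over 0.1). A replicate block within each tissue gave 52 genes for the interaction, 115 for liver, 138 for jejunum and 210 for the mean, and a replicate block over both tissues gave 101 for the interaction. Positive interactions were 45.5% of the calls, and 59.6% with the block within tissues. Over 585 fits of the named interactions under other settings, 520 stayed past the threshold, 65 did not and 0 changed sign. The replicate blocks, the fit of 24 arrays and the 1.5-fold minimum, among others, kept the estimates of the main fit. A change of sign was not possible in those settings, so the absence of such changes says little about stability. The causes of the changes in the calls were not tested. Weak signals near the array median limit the low-level genes.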
